A study of Mus musculus with 43 samples.

Results

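Fibronectin and integrin subunits of fibronectin, laminin and collagen receptors were followed through drug treatment of mouse colon organoids and mouse colon fibroblasts. The genes described are Fn1 and the subunit genes Itga2, Itga3, Itga5, Itga6, Itga8, Itgav, Itgb1, Itgb4 and Itgb6, which are 10 of the 52636 genes in the tables. They were listed with earlier results of these data known, by a rule that names no contrast. The response to regorafenib, a multi-kinase inhibitor, was taken as the measure they were selected on, so changes from vehicle to regorafenib are described here without a test, while genotype, dose, 5-FU and autogramin-2 are tested. Colonoids came from adult Vil-cre/ERT2 mice with wild-type Apc alleles (lines M41, M40 and M1), and tumoroids from adult Vil-cre/ERT2 mice whose floxed Apc alleles had been recombined (lines F11, M3 and M14). All mice of both genotypes had received tamoxifen, the villin promoter restricts this Cre to the intestinal epithelium, and each organoid line came from 1 mouse. Organoids were harvested after 6 days with DMSO vehicle (Ve), 4 µM regorafenib (R4), 8 µM regorafenib (R8) or 1 µM of the pyrimidine analogue 5-FU, which gave 24 libraries in 8 groups of 3. Fibroblasts were wild-type primary cultures from C57BL/6 colon (lines M3, M3(2), M1(2) and M11), in which M3 is not the tumoroid line of that name. They were harvested after 7 days with vehicle, R4, 10 µM regorafenib (R10, not for M11), 1 µM autogramin-2 (A1), an inhibitor of the cholesterol transfer protein GramD1A, or R4 and A1 together (R4A1), which gave 19 libraries.

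Integrins are heterodimers of 1 alpha and 1 beta subunit that span the membrane and join the extracellular matrix to the actin or keratin cytoskeleton. Fibronectin is a secreted glycoprotein that cells assemble into fibrils, and the receptors alpha5 beta1, alpha8 beta1 and those holding alphav bind it through the tripeptide Arg-Gly-Asp. The receptors alpha3 beta1 and alpha6 beta4 bind laminins of the basement membrane, alpha2 beta1 binds collagens and laminins, and alphav beta6 is an epithelial receptor that also activates latent TGF-beta. Colon epithelium rests on laminin and collagen, whereas fibronectin is chiefly a product of the stroma.

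The Arg-Gly-Asp tripeptides encoded by Fn1 are shown because this tripeptide ties the ligand to receptors among the members. In the longest coding transcript of Fn1 (GENCODE M21, build GRCm38, minus strand), which encodes 2477 residues, the tripeptide occurs at residue 1614, encoded in exon 30 at chr1:71606746-71606754, and at residue 2181, encoded in exon 40 at chr1:71597443-71597451. The first is the known integrin-binding loop of the tenth type III repeat. The second was found by its letters alone, and whether it binds a receptor was not examined. Both stretches are read 5′ to 3′ in frame, with the Arg-Gly-Asp codons in capitals, and 7 of 9 coding transcripts hold at least 1 such tripeptide.
Fn1 exon 30, chr1:71606722-71606778: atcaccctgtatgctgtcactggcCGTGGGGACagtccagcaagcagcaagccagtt
Fn1 exon 40, chr1:71597419-71597475: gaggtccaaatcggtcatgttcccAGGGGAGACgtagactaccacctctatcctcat

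The promoters of 3 alpha subunits of Arg-Gly-Asp receptors are shown because these members differed most in how they moved, Itga5 and Itgav with Fn1 in organoids and Itga8 in fibroblasts. Of the 10 genes, 7 had an entry among the RefSeq promoters (GRCm38.p6), and Fn1, Itga6 and Itgb4 had none. The 250 bases before each start were searched on both strands for TGANTCA (the AP-1 motif), GGAATG (TEAD) and GGGCGG (SP1), and matches are in capitals.
Itga5, chr15:103366792-103367041, minus strand: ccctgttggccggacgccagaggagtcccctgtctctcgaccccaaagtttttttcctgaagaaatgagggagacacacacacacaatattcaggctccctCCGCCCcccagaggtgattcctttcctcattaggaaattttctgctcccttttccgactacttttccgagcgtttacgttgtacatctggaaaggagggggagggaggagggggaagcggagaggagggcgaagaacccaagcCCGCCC
Itgav, chr2:83724147-83724396, plus strand: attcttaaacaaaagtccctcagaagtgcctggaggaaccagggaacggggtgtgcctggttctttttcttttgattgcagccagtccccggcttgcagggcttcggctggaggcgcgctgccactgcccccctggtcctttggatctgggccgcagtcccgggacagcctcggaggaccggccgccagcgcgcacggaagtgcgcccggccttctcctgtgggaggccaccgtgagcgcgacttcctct
Itga8, chr2:12301945-12302194, minus strand: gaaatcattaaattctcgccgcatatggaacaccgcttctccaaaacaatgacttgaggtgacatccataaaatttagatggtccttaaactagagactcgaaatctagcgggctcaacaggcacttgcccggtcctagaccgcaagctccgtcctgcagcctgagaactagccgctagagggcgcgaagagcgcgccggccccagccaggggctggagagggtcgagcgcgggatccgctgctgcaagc
The Itga5 window held 2 SP1 matches and neither other motif, and the Itgav and Itga8 windows held none of the 3. Among all 32851 promoter windows of this length, 6.75% held the AP-1 letters, 12.6% the TEAD letters and 32.7% the SP1 letters. A match is a description of these letters and not evidence of a bound factor.

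Values are CP20M, read counts per gene scaled to 20000000 per library and not divided by gene length. Depth ran from 512591 to 22369266 counted reads in organoids (median 15697936.5) and from 7949965 to 12825919 in fibroblasts (median 9039204), and the shallowest library was colonoid M41 at R4, where a single read is worth about 39.0 CP20M. All 7 epithelial markers checked reached 200 CP20M in every organoid group, while the 7 fibroblast markers summed to between 12 and 119 CP20M per organoid library and none reached 200. The fibroblast libraries held 110024 to 185056 CP20M of fibroblast markers, and Epcam, Cdh1, Krt8 and Cldn7 stayed below 20 in all of them. Of the other epithelial markers, Vil1 ran from 0 to 40 CP20M there, Krt18 from 0 to 56 and Krt19 from 162 to 1512. The fibroblast libraries also held endothelial, smooth muscle and macrophage marker RNA, which is given beside the results it moves with. Apc cannot be checked by level, since its mean in vehicle was 3298 ± 1157 in colonoids and 5038 ± 151 in tumoroids (SD, n = 3), and total counts do not show the loss of an exon. In bulk RNA, fewer cells of a type and less RNA per cell cannot be told apart.

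To place the members before treatment, their levels in vehicle were compared per kilobase of exons. In colonoids Itgb1, the shared partner of many alpha subunits, stood highest at 2673 ± 178 CP20M per kb (SD, n = 3). Itga3, Itgb4 and Itga6 followed at 1501 ± 642, 1414 ± 256 and 1223 ± 150, with ranges that overlapped in that order. Fn1 at 717 ± 403 overlapped Itga2 at 592 ± 19.7. Itgav at 376 ± 56.3 and Itgb6 at 261 ± 80.4 came next, and Itga5 at 18.0 ± 1.19 and Itga8 at 9.59 ± 4.75 were the lowest. The colonoid epithelium therefore held subunits of laminin and collagen receptors at higher levels. Itga5 and Itga8, alpha subunits of fibronectin receptors, were low, and Itgav, also in fibronectin receptors, lay between.

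Tumoroids in vehicle had nearly the same order, except that Fn1 stood eighth at 147 ± 82.8 CP20M per kb (SD, n = 3). Fibroblasts showed a different order, with Itgb1 at 13360 ± 1683 and Fn1 at 10760 ± 2338 overlapping at the top (SD, n = 4). Itga5 at 1990 ± 421 and Itgav at 1910 ± 231 overlapped below them. Itga6, Itga3, Itgb4, Itga2 and Itga8 lay between 515 ± 311 and 45.7 ± 11.9. Itgb6 was at 0 to 9 CP20M before division by length in all 19 fibroblast libraries, the level of a few reads. The tables of organoids and fibroblasts were scaled separately, so no test was run between them.

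**Figure D1:**
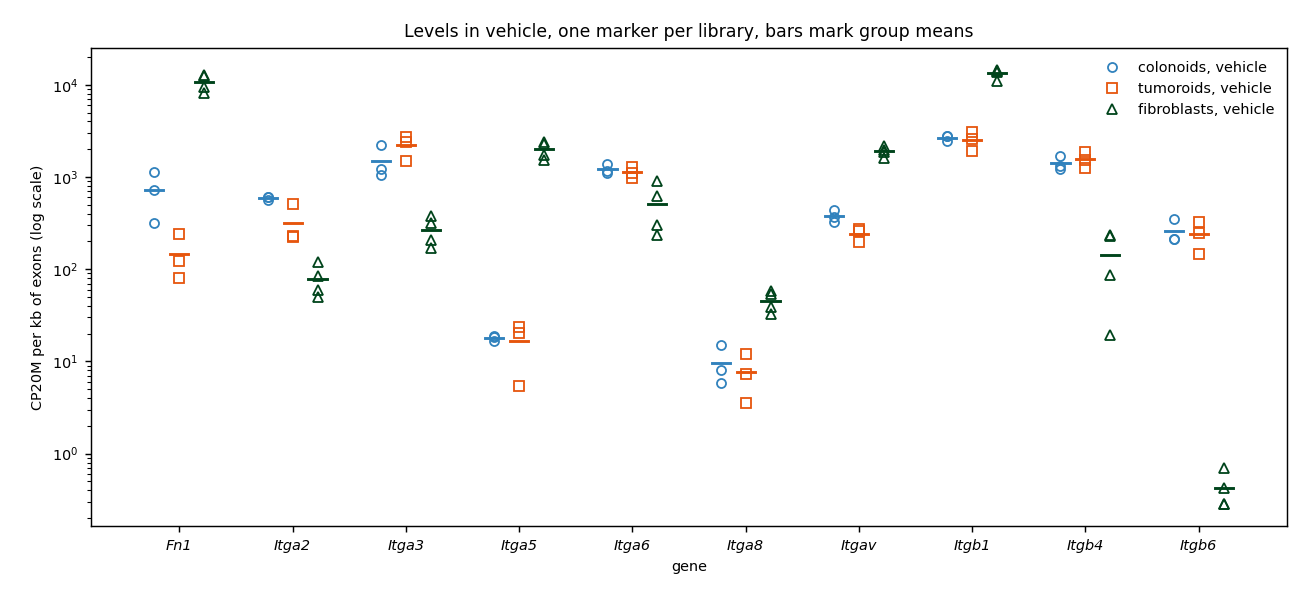
Level of each gene in vehicle in CP20M per kb of exons on a log axis, with 1 marker per library and bars at the means of colonoids (n = 3), tumoroids (n = 3) and fibroblasts (n = 4). Fn1, Itga5, Itga8, Itgav and Itgb1 are higher in the 4 fibroblast libraries, Itga2, Itga3, Itgb4, Itgb6 and, narrowly, Itga6 in the 6 organoid libraries.

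Loss of Apc was examined first in vehicle. Of the 9 members that reached 200 CP20M in at least 2 organoid libraries (Itga8 did not), none passed an FDR of 0.01 and a log2 fold change of 1 between tumoroids and colonoids. By the same rule 0.141% of the 11320 genes tested passed. Itga5 was below 200 CP20M in every vehicle library and met this filter through treated libraries alone. Fn1 measured 8367, 13095 and 3683 CP20M in colonoids M41, M40 and M1, and 935, 1430 and 2802 in tumoroids F11, M3 and M14. Every tumoroid line was below every colonoid line. The log2 fold change was −2.23 ± 0.71 (SE), with a 95% interval of −3.74 to −0.73 and an adjusted p of 0.132 in limma.

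The other members differed by less between the genotypes. Itga2, which binds collagen, measured 4061, 4312 and 4297 CP20M in colonoids and 1612, 1618 and 3608 in tumoroids, again without overlap. Its estimate was −0.99 ± 0.56 (SE) on the log2 scale, at an adjusted p of 0.431 in limma. Itgav was also lower in every tumoroid line, at 2102 to 2945 against 3490 to 4688 CP20M (−0.63 ± 0.36, adjusted p = 0.437 in limma). Itga3, a laminin receptor subunit, had the estimate 0.59 ± 0.25 with overlapping values (adjusted p = 0.273 in limma). The remaining 5 had estimates between −0.24 and 0.13, and their adjusted p-values were at least 0.819 in limma.

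Regorafenib in organoids raised the question of which side of the ligand and receptor pair moved. Fn1 was the member that changed most, and it was higher in 6 of 6 lines at each dose. In colonoids M41, M40 and M1 it measured 56341, 93302 and 102867 CP20M at R4 and 224457, 165618 and 52413 at R8. In tumoroids F11, M3 and M14 it measured 36033, 55721 and 157849 at R4 and 22870, 66208 and 121856 at R8. No treated library overlapped the vehicle libraries of its genotype, or of the other one. Over both doses the log2 fold change was 4.54 ± 0.43 (SE), 3.77 ± 0.61 in colonoids and 5.31 ± 0.61 in tumoroids.

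Within each line the ratio of Fn1 at R4 to vehicle ran from 6.73 in colonoid M41 to 56.3 in tumoroid M14, and at R8 from 12.6 in colonoid M40 to 46.3 in tumoroid M3. At R8 Fn1 had the highest mean of the members per kilobase, at 12620 ± 7484 CP20M per kb in colonoids and 6018 ± 4247 in tumoroids (SD, n = 3). Its values overlapped those of Itgb1, at 4699 ± 943 and 3107 ± 395. The fibroblast vehicle level was 10760 ± 2338 on that scale in a table scaled separately. The sum of the 7 fibroblast markers lay between 13 and 118 CP20M in the 12 regorafenib libraries and between 12 and 119 in vehicle, and Lum was at 0 in all 18 of these libraries. Over the 24 libraries Fn1 and this sum had a Pearson r of 0.40, and 0.32 after subtraction of line means. For the 6 macrophage markers r was 0.47 and 0.43, and their sum was 788 to 3071 CP20M in vehicle and 1121 to 3660 with regorafenib. Over the 24 libraries Ptprc, Lyz2 and Adgre1 did not exceed 40 CP20M. Cd68 ran from 32 to 2659, Csf1r from 352 to 625 and Cd14 from 261 to 2560. The part of both sets of markers in the Fn1 values was not tested.

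Itga5, the alpha subunit of the main fibronectin receptor, was the next largest, from a low start. It measured 82, 91 and 93 CP20M in vehicle in colonoids M41, M40 and M1, 274, 417 and 515 at R4, and 831, 875 and 495 at R8. In tumoroids F11, M3 and M14 it measured 27, 100 and 118 in vehicle, 253, 372 and 554 at R4, and 194, 438 and 611 at R8. All 12 treated libraries lay above all 6 vehicle libraries, and the log2 fold change was 2.22 ± 0.27 (SE). The M41 value at R4 rests on about 7 reads, and without that library the estimate was 2.28.

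Itgav, which pairs with several beta subunits in Arg-Gly-Asp receptors, was higher in 6 of 6 lines. Its vehicle values of 2102 to 4688 CP20M became 4644 to 12018 at R4 and 3349 to 13642 at R8, and the estimate was 1.18 ± 0.22 (SE) on the log2 scale. Itgb1, the partner of alpha5, was also higher in 6 of 6 lines, with 7772 to 12632 CP20M in vehicle, 8038 to 22416 at R4 and 10824 to 22012 at R8 (0.62 ± 0.19). Its value in the shallow M41 library at R4 was the only treated value of a line below that line's vehicle. Without that library the Itgb1 estimate was 0.74.

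Itgb6, the epithelial partner of alphav, gave 0.52 ± 0.25 and was higher in 5 of 6 lines, with 1049 to 2516 CP20M in vehicle and 1208 to 4265 at R8. Among the subunits of laminin and collagen receptors the changes were smaller. Itgb4, the beta subunit of the hemidesmosome, gave 0.41 ± 0.11 over both doses, with 6 of 6 lines higher at R4 and 2 of 6 at R8. Itga3 gave 0.29 ± 0.15, with 6 of 6 lines higher at R4 and 3 of 6 at R8. Itga2 gave 0.28 ± 0.34, with 5 of 6 lines higher at R4 and 2 of 6 at R8. For these 3 the mean of both doses therefore joins unlike values, with mean line changes at R4 and R8 of 0.70 and 0.12 for Itgb4, 0.54 and 0.04 for Itga3, and 0.90 and −0.34 for Itga2. Itga6, which pairs with beta4, gave −0.10 ± 0.17 with 3 of 6 lines higher, and all genes had a median of −0.10.

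Itga8 stayed between 2 and 110 CP20M in all 24 organoid libraries and was not tested there. It measured 26 to 110 in vehicle, 12 to 79 at R4 and 2 to 62 at R8, which overlap. At an FDR of 0.001 and a 1.5-fold change, 2 of the 9 members tested passed (Fn1 and Itga5), beside 4.97% of the 11320 genes tested. With the line as a block, which pairs the cultures of each mouse, 3 passed (Itgav added), beside 6.67% of all genes. Without the shallow library 4 passed (Itgav and Itgb1 added), beside 10.0%, and without line M40 only Fn1 did. These counts come from the response taken as guiding the choice of genes.

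**Figure D2:**
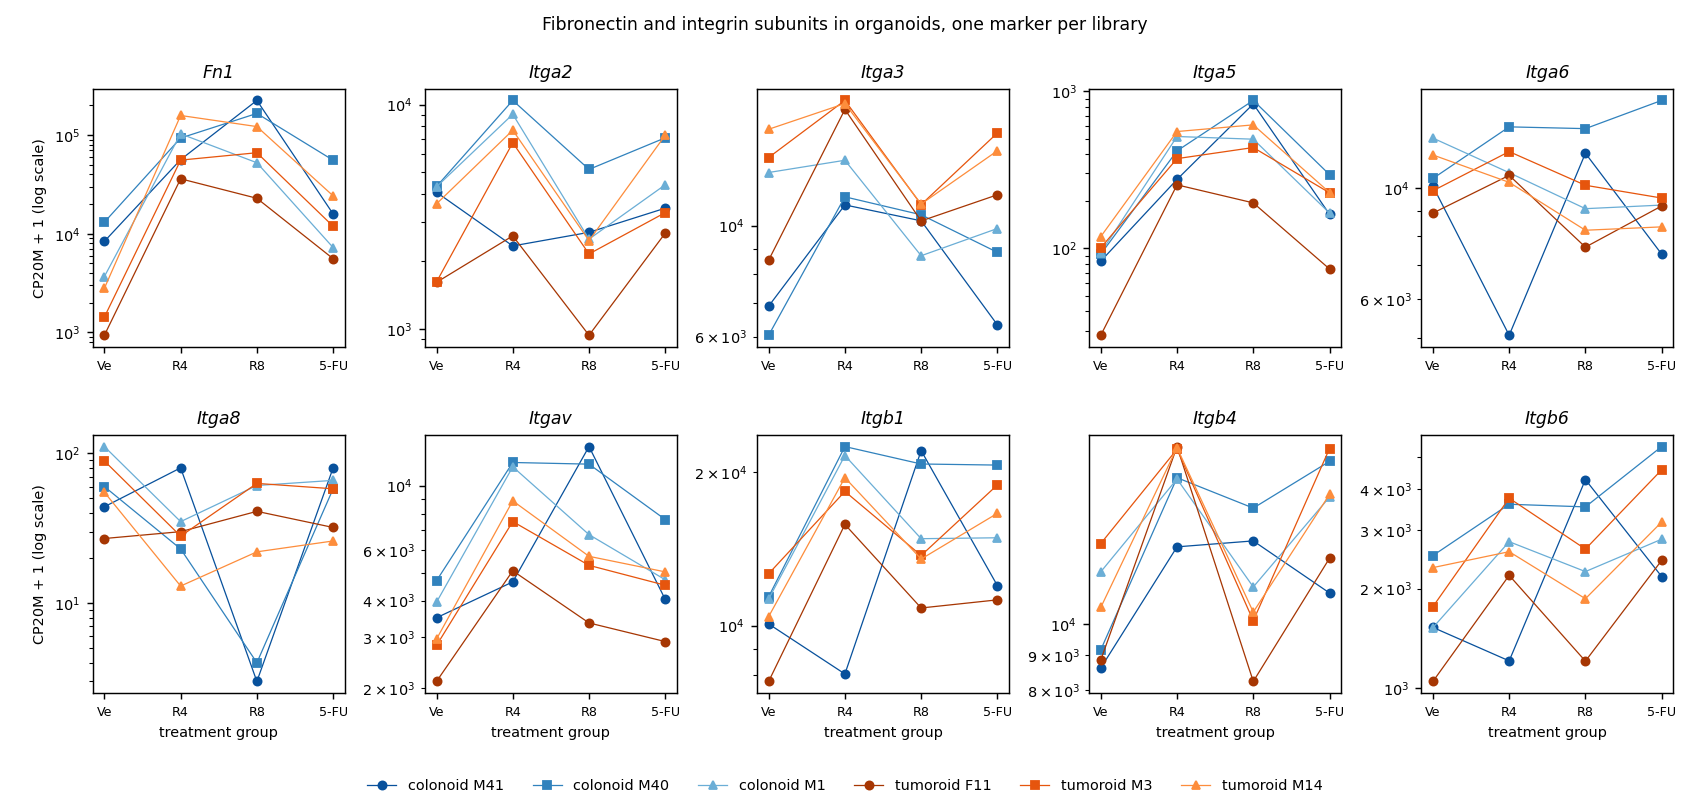
CP20M + 1 of each gene in the 24 organoid libraries on log axes that differ between panels, by treatment group, with 1 marker per library and lines that join the libraries of a line. Fn1 and Itga5 lie above the vehicle value of their line in every treated library, and Itga2, Itga3 and Itgb4 are higher at R4 than at R8 in at least 5 of 6 lines.

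Genotype was then tested as a modifier of the regorafenib response. The difference between tumoroids and colonoids in that response passed an FDR of 0.05 for none of the 9 members, and for 0.00883% of the 11320 genes. For Fn1 the difference in log2 fold change was 1.54 ± 0.86 (SE), with a 95% interval of −0.30 to 3.38 and an adjusted p of 1.0 in limma. The other 8 estimates lay between −0.25 and 0.41.

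The doses were compared next, 8 against 4 µM. No member of 9 passed an FDR of 0.05 and a 1.5-fold change in the fit of all libraries, while 0.451% of the 11320 genes did and all genes had a median of 0.11. Itga2 had the largest estimate of the members. It measured 2342, 10431 and 9047 CP20M at R4 in colonoids M41, M40 and M1 and 2693, 5138 and 2512 at R8. In tumoroids F11, M3 and M14 it measured 2597, 6757 and 7682 at R4 and 936, 2157 and 2473 at R8. It was lower at R8 in 5 of 6 lines, M41 being the exception.

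For Itga2 the log2 fold change was −1.23 ± 0.39 (SE) with an adjusted p of 0.179 in limma, and with the line as a block the adjusted p was 0.0443, which passes, beside 1.78% of all genes. Without the shallow M41 library the estimate was −1.57 with an adjusted p of 0.0294 in limma. Itgb4 fell short by less, at −0.58 ± 0.13 and an adjusted p of 0.0632 in limma. It had 13032 to 18353 CP20M at R4 and 8231 to 14876 at R8, and was lower at R8 in 5 of 6 lines. Without the M41 library Itgb4 passed as well, at −0.63 and an adjusted p of 0.0213 in limma, which made 2 members, beside 1.15% of all genes.

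Itga3 was lower at R8 in 6 of 6 lines (−0.49 ± 0.18, adjusted p = 0.215 in limma). By contrast Fn1 was higher at R8 in 3 of 6 lines, with an estimate of 0.18 ± 0.50 and a 95% interval of −0.88 to 1.24 (adjusted p = 0.879 in limma). Itga5 gave 0.42 ± 0.32, with an interval of −0.25 to 1.09 (adjusted p = 0.519 in limma). The other 4 members had estimates between −0.16 and −0.01, and 1 of 6 lines was higher at R8 for each of them, M41 again. Without the shallow M41 library these became −0.22 for Itga6, −0.29 for Itgb6, −0.36 for Itgb1 and −0.39 for Itgav, and none passed.

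Exposure to 5-FU, which disturbs nucleotide and RNA metabolism, gave a comparison that was taken as outside the choice of members, which the rule does not state, and that shares the vehicle libraries. Fn1 rose. It measured 15862, 55584 and 7245 CP20M in colonoids M41, M40 and M1 and 5584, 11904 and 24198 in tumoroids F11, M3 and M14. Each was above the vehicle value of its line, by a ratio of 1.90 to 8.64. On the log2 scale this was 2.11 ± 0.56 (SE), with an adjusted p of 0.0441 in limma and 0.000999 with the line as a block. By an FDR of 0.05 and a 1.5-fold change, Fn1 was 1 of 9 members called, beside 2.35% of the 11562 genes tested.

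The call for Fn1 was lost when any of the 6 lines was left out. Its adjusted p in limma was then 0.053 to 0.263 and its estimate 1.92 to 2.21, and without F11 the 1 member that passed was Itga5. With the line as a block 3 members passed, Fn1, Itga5 and Itgb6, beside 5.05% of all genes. Without the shallow library, which is not part of this contrast but enters the estimate of spread, Fn1 and Itgb6 passed, beside 4.28%.

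Itga5 measured 164, 294 and 167 CP20M with 5-FU in colonoids M41, M40 and M1 and 73, 225 and 226 in tumoroids F11, M3 and M14, higher than vehicle in 6 of 6 lines. Its estimate was 0.99 ± 0.33 (SE), at an adjusted p of 0.113 in limma and 0.00335 with the block. Itgb6 measured 2175, 5366 and 2819 in colonoids and 2433, 4565 and 3176 in tumoroids, also above vehicle in 6 of 6 lines (0.91 ± 0.30, adjusted p = 0.108 in limma, 0.0128 with the block). For Itgb6 the 5-FU estimate stood beside 0.52 for regorafenib, whereas for Fn1 the 2 values were 2.11 and 4.54 and for Itga5 0.99 and 2.22. These pairs share their vehicle libraries and were not tested against each other.

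Itgb1, Itgb4 and Itgav were each higher with 5-FU in 6 of 6 lines as well. Their log2 fold changes were 0.55 ± 0.22 (adjusted p = 0.211 in limma), 0.53 ± 0.14 (adjusted p = 0.0441 in limma, below the fold required) and 0.51 ± 0.25 (adjusted p = 0.335 in limma). Itga2 gave 0.54 ± 0.39, Itga3 0.08 ± 0.17 and Itga6 −0.14 ± 0.20. Itga8 measured 25 to 79 CP20M with 5-FU and 26 to 110 in vehicle, which overlap.

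In fibroblasts regorafenib was not followed by more Fn1. The transcript measured 146950, 150095, 111707 and 94194 CP20M in vehicle in lines M3, M3(2), M1(2) and M11. It measured 115799, 115031, 70938 and 78446 at R4, and 103536, 88188 and 94928 at R10 in the first 3 lines. Each treated library was below the vehicle library of its line, although the groups overlap. The log2 fold change was −0.41 ± 0.19 (SE) at R4 and −0.37 ± 0.21 at R10, against 4.54 in organoids over R4 and R8. Within lines Fn1 and the sum of the smooth muscle markers described next had a Pearson r of −0.76 over the 19 libraries, and the part of these markers was not tested.

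Itga8, whose receptor with beta1 binds fibronectin and nephronectin in mesenchymal cells, was the member that changed most in fibroblasts. It measured 242, 426, 394 and 285 CP20M in vehicle in lines M3, M3(2), M1(2) and M11 and 1309, 1381, 1142 and 1089 at R4. At R10 it measured 2463, 2931 and 1906. Neither treated group overlapped vehicle or the other dose, and the log2 fold change was 1.84 ± 0.22 at R4 and 2.79 ± 0.24 at R10 (SE). Per kilobase it moved from ninth of the 10 genes in vehicle to sixth at R10, at 330 ± 69.6 (SD, n = 3).

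Markers of contractile cells moved with Itga8. The 4 smooth muscle markers, of which 3 reached 200 CP20M, summed to 7570 to 23293 in vehicle, 18007 to 43507 at R4 and 30434 to 38725 at R10, and none of the 4 was at 0. Across the 19 fibroblast libraries, after subtraction of each line's mean, Itga8 and this sum had a Pearson r of 0.88, which is a description over libraries that share 4 lines. The part of these markers in the Itga8 values was not tested. The antisense gene E030013I19Rik shares 372 exonic bases with Itga8 and measured 18 to 49 CP20M in vehicle and 189 to 197 at R10. Without a stated strand setting its reads cannot be told apart from those of Itga8.

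Among the other receptors of fibronectin, Itga5 in fibroblasts measured 7531 to 11898 CP20M in vehicle, 9823 to 17970 at R4 and 7076 to 11610 at R10. Its estimates were 0.28 ± 0.27 and 0.02 ± 0.29 (SE), with overlapping groups. Itgav was lower than vehicle in 4 of 4 lines at R4 and 3 of 3 at R10, by −0.22 ± 0.16 and −0.39 ± 0.17. Itgb1 was higher in 4 of 4 and 3 of 3 lines, by 0.18 ± 0.12 and 0.41 ± 0.13, with 44439 to 59629 CP20M in vehicle and 68985 to 73839 at R10, which do not overlap. After subtraction of line means Itgb1 had a Pearson r of −0.91 with the sum of the 6 macrophage markers and 0.61 with that of the smooth muscle markers, and their part was not tested.

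Itga2 measured 361, 425, 851 and 608 CP20M in vehicle in lines M3, M3(2), M1(2) and M11, 219, 290, 328 and 492 at R4, and 170, 159 and 270 in the first 3 at R10. It was lower in every line at both doses, with estimates of −0.70 ± 0.40 and −1.36 ± 0.43 (SE). Itga6 was higher in every line, at 0.61 ± 0.56 and 0.71 ± 0.61, with 2145 to 8205 CP20M in vehicle and 5515 to 9231 at R10. The spread between lines was large for Itga6, and M11 had the highest value in each group that held it. M11 has no R10 library, and matched by line the R10 estimate of Itga6 was 1.08. After subtraction of line means the smooth muscle sum had a Pearson r of −0.76 with Itga2 and 0.72 with Itga6, the macrophage sum had −0.86 with Itga6, and their part was not tested.

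The subunits of laminin receptors were uneven between fibroblast lines. Itgb4 measured 137 CP20M in line M3 in vehicle and 1646, 612 and 1596 in M3(2), M1(2) and M11. Its estimates were 0.48 ± 1.01 at R4 and −0.95 ± 1.09 at R10 (SE; −0.57 at R10 when matched by line), and those of Itga3 were −0.10 ± 0.45 and −1.05 ± 0.48. The highest values of both, 3052 for Itgb4 and 2870 for Itga3, were in M3(2) at R4. That library also had the highest sum of the 4 endothelial markers, 20692 CP20M, against 747 to 1591 in the 5 libraries of line M3, where Itgb4 was 137 to 179.

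Over the 19 libraries Itgb4 and the endothelial sum had a Pearson r of 0.73, and 0.67 after subtraction of line means. All 4 endothelial markers, which are Pecam1, Cdh5, Kdr and Tek, were above 0 in every fibroblast library, and their sum ranged from 877 to 7281 in vehicle, 1345 to 20692 at R4 and 1201 to 4750 at R10. Their part in the Itgb4 and Itga3 values was not tested. Krt8, a keratin of simple epithelium, was at 0 in every library of vehicle and R4. Of the 7 epithelial markers, 1 reached 200 CP20M in the fibroblast groups (Krt19, at 162 to 1512), and their sum was 260 to 1357 in vehicle.

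With an FDR of 0.05 and a 1.5-fold change, 1 of 9 members passed at R4 (Itga8), beside 1.02% of the 11032 genes tested, and 2 at R10 (Itga2 and Itga8), beside 7.33%. The Itga2 call at R10 was lost when line M3, M3(2) or M1(2) was left out, with a pseudocount of 100 CP20M and without a filter. With the line as a block 3 members passed at R4 (Itga2, Itga6 and Itga8), beside 7.22% of all genes, and 4 at R10 (with Itga3), beside 13.8%. These are the contrasts taken as guiding the choice of members, and the counts are a description.

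**Figure D3:**
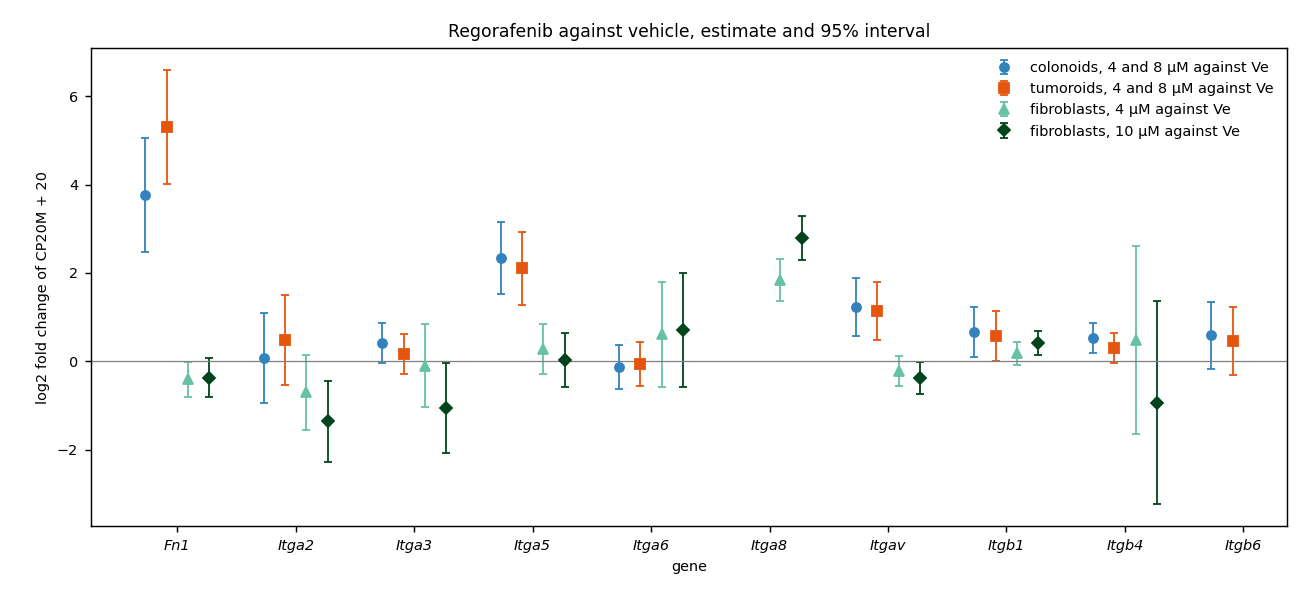
Log2 fold change of CP20M + 20 from vehicle to regorafenib for each gene in colonoids and tumoroids (mean of 4 and 8 µM) and in fibroblasts (4 and 10 µM), with 95% intervals from limma. Fn1 is at 3.77 and 5.31 in the organoids and −0.41 and −0.37 in the fibroblasts, and Itga8 is shown for fibroblasts alone because it was too low in organoids.

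Between 10 and 4 µM regorafenib in fibroblasts, no member passed an FDR of 0.05 and a 1.5-fold change, beside 0.145% of the 11032 genes. Itga8 gave 0.96 ± 0.24 (SE), with a 95% interval of 0.45 to 1.46 and an adjusted p of 0.104 in limma. It was higher at R10 in 3 of 3 lines. Lines M3, M3(2) and M1(2) were grown at both doses and M11 was not, so the block compares cultures of the same mouse for these 3 lines. With the block 3 members passed, beside 6.02% of all genes.

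Under that block Itga8 rose between the doses by 0.86 (adjusted p = 0.00358 in limma), Itga3 fell by 0.86 (adjusted p = 0.00281) and Itgb4 fell by 1.04 (adjusted p = 0.0209). Without the block Itga3 gave −0.96 ± 0.48 (SE, adjusted p = 0.454 in limma) and Itgb4 −1.42 ± 1.09 (adjusted p = 0.663). Fn1 gave 0.04 ± 0.21, with an interval of −0.40 to 0.48 (adjusted p = 0.972 in limma). With the block the Fn1 estimate was −0.06 (adjusted p = 0.754 in limma), and Fn1 was lower at R10 in 2 of 3 lines.

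Autogramin-2 alone was compared with vehicle in 4 lines. None of the 9 members passed an FDR of 0.05 and a 1.5-fold change, and 0.0% of the 11032 genes did in limma, where 120 had an unadjusted p under 0.05. Itga8 measured 162, 260, 305 and 179 CP20M, lower than vehicle in 4 of 4 lines. The estimate was −0.54 ± 0.22 (SE) on the log2 scale, with a 95% interval of −1.01 to −0.07 and an adjusted p of 1.0 in limma. Fn1 measured 180111, 150244, 126882 and 117241, higher in 4 of 4 lines, at 0.20 ± 0.19 (adjusted p = 1.0 in limma). The other 7 estimates lay between −0.29 and 0.16.

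Adding autogramin-2 to 4 µM regorafenib called none of the 9 members by the same thresholds, beside 0.00906% of the 11032 genes. Itga8 measured 800, 935, 910 and 529 CP20M in lines M3, M3(2), M1(2) and M11 with both drugs, lower than R4 alone in 4 of 4 lines and still above every vehicle library. The log2 fold change was −0.65 ± 0.22 (SE), with a 95% interval of −1.12 to −0.18 and an adjusted p of 0.87 in limma. With the line as a block Itga8 was the member that passed, at an adjusted p of 0.0361, beside 1.43% of all genes. The smooth muscle sum was 12741 to 33218 CP20M with both drugs against 18007 to 43507 at R4, lower in each line, and its part was not tested.

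The Fn1 estimate had the other sign. With both drugs it measured 133228, 126138, 117655 and 98880 CP20M, higher than R4 alone in 4 of 4 lines, by 0.35 ± 0.19 (SE, adjusted p = 0.9 in limma, 0.0586 with the block). Itgb1 gave 0.20 ± 0.12 (adjusted p = 0.907 in limma) and Itga3 −0.43 ± 0.45, lower in 4 of 4 lines (adjusted p = 0.988 in limma). The other 5 estimates lay between −0.54 and 0.11.

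**Figure D4:**
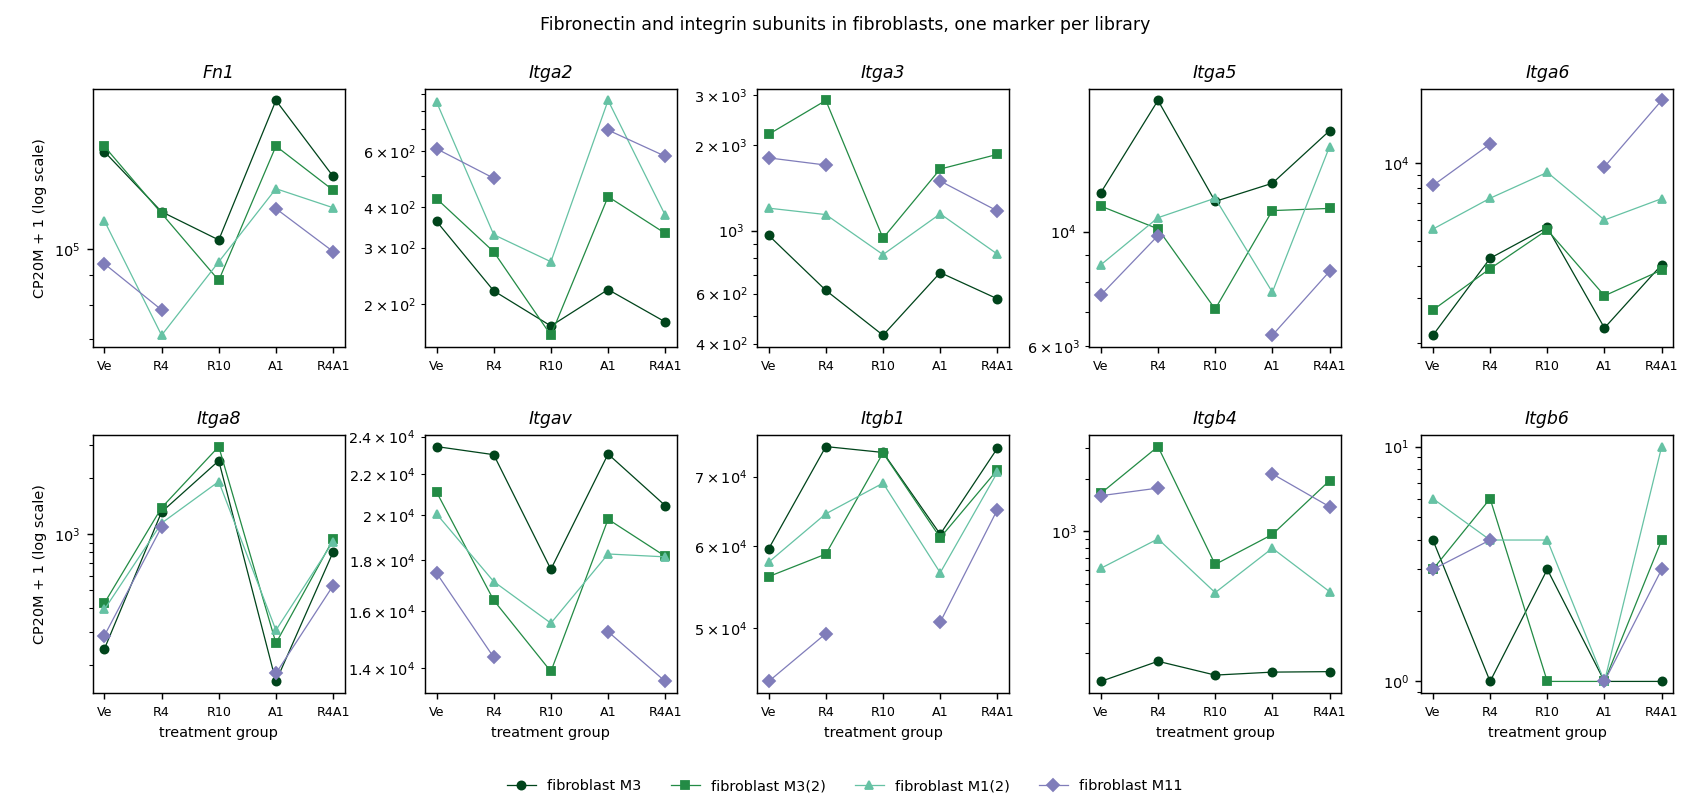
CP20M + 1 of each gene in the 19 fibroblast libraries on log axes that differ between panels, by treatment group, with 1 marker per library and lines that join the libraries of a line (M11 has no R10 library). Itga8 is higher than vehicle in every library with regorafenib, and Itgb6 stays between 0 and 9 CP20M.

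The members were compared for likeness across libraries, on log2(CP20M + 20) after subtraction of each line's mean, as a description. In the 24 organoid libraries Fn1 and Itga5 had a Pearson r of 0.95, Fn1 and Itgav 0.91, Itga5 and Itgav 0.91, and Itgav and Itgb1 0.88. Fn1 and Itga6 had 0.02. In the 19 fibroblast libraries Fn1 and Itga8 had −0.86, Itga6 and Itga8 0.87, Itga3 and Itgb4 0.72, and Fn1 and Itga5 −0.03. The points share lines, treatments and sequencing runs.

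The gene most like Fn1 in both tables was Apol7d, with 0.997 in organoids and 0.993 in fibroblasts. Apol7d is annotated on the opposite strand over the start of Fn1 and shares 292 exonic bases with it. Without a stated strand setting its reads cannot be told apart from those of Fn1. It had 88.0 ± 50.1 CP20M in tumoroids in vehicle and 3078 ± 2291 at R8 (SD, n = 3). In colonoids it had 360 ± 196 in vehicle and 6205 ± 3168 at R8 (n = 3), and in fibroblasts in vehicle 4991 ± 1002 (n = 4). Next in organoids came Cpe (0.98), Sdc3 (0.98), Gramd1a (0.97), the gene of the autogramin-2 target, and Pxdn (0.97), among 11562 genes. In fibroblasts they were AC122465.1 (0.93), Zfp36l2 (0.92), Glg1 (0.91) and Trip12 (0.91), among 11032 genes.

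Other members have overlapping neighbours too. Gm13684 shares 634 exonic bases with Itgav and had 0 to 90 CP20M in organoids and fibroblasts. B230344G16Rik shares 537 with Itgb4, on the opposite strand, and had 1482 to 2267 CP20M in tumoroids in vehicle and 17 to 281 in fibroblasts in vehicle. The limit from the unstated strand setting holds for these genes as well.

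The rest of the integrin pathway was examined through 5 lists, written with earlier results of these data known. Their counts and adjusted p-values are therefore a description. Among all genes tested, 4.97% passed with regorafenib in organoids, and 1.02% at R4 and 7.33% at R10 in fibroblasts. Of 17 other integrin subunits, 2 were tested in organoids and none passed with regorafenib by the FDR of 0.001. In fibroblasts 8 were tested, of which Itga1 rose at both doses and Itgb3 fell at R10. Itga1, a collagen receptor subunit, measured 842 to 1073 CP20M in vehicle, 1987 to 3097 at R4 and 2274 to 3616 at R10 (1.25 ± 0.20 and 1.53 ± 0.22, adjusted p = 0.0035 and 0.0003 in limma).

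Itgb3, a partner of alphav, measured 316 to 794 CP20M in vehicle and 130 to 243 at R10 (−1.32 ± 0.38, adjusted p = 0.0286 in limma). The count of 2 became 1 when line M3, M1(2) or M11 was left out and stayed at 2 without M3(2). The list had a median of −0.40 at R10 beside −0.04 for all genes. The 6 macrophage markers, of which 3 reached 200 CP20M in vehicle, summed to 1158 to 5394 CP20M in vehicle, 734 to 1952 at R4 and 606 to 643 at R10, with none at 0 in every library. Their part in Itgb3 was not tested.

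Of 27 integrin activators and adhesion adaptors, 22 were tested in organoids, where 3 rose with regorafenib and none fell, beside 4.97% of all genes. Fermt2, a kindlin that helps activate integrins, went from 46.2 ± 26.8 CP20M (SD, n = 6) to 471 ± 216 (n = 12), which is 2.89 ± 0.31 on the log2 scale (SE, adjusted p = 2.05e-05 in limma). Actn1, an actin crosslinker of focal adhesions, gave 1.02 ± 0.18 (adjusted p = 0.000726) and Kank2, which binds talin, 0.96 ± 0.12 (adjusted p = 4.01e-05 in limma). Fermt2 did not exceed 80 CP20M in vehicle and met the filter for testing through regorafenib libraries alone. A gene this low in vehicle is tested only if it is higher with treatment, which favours rises in the count. The list had a median of 0.19 against −0.10 for all genes, and this median includes Fermt2. In fibroblasts none of 25 passed at R4. At R10 2 of the 25 rose, beside 7.33% of all genes. They were Tln2 (1.21 ± 0.24, adjusted p = 0.00327 in limma), a talin that links integrins to actin, and Lims2 (0.84 ± 0.18, adjusted p = 0.00502 in limma).

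Other integrin ligands were also higher in organoids. Of 20, 15 were tested, and 6 rose and none fell with regorafenib, beside 4.97% of all genes. The list had a median of 1.06 against −0.10 for all genes. Both the count and the median include Tnc and Ltbp1, which did not exceed 17 and 173 CP20M in vehicle. These genes met the filter for testing through regorafenib libraries alone, so their entry depended on higher values with treatment, which favours rises. Tnc, a matricellular ligand of several integrins, went from 4 to 17 CP20M in vehicle to 38 to 2977 (3.16 ± 0.47, adjusted p = 0.000219 in limma). Thbs1 gave 2.98 ± 0.32, Ltbp1, a latent TGF-beta binding protein, 2.32 ± 0.36, and Mfge8, an Arg-Gly-Asp ligand of alphav integrins, 1.62 ± 0.20, with adjusted p-values of 1.78e-05, 0.000338 and 5.48e-05 in limma.

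In fibroblasts 18 of these ligands were tested. Spp1, osteopontin, an Arg-Gly-Asp ligand that macrophages also make, fell from 2036 to 6821 CP20M in vehicle to 246 to 527 at R4 and 102 to 159 at R10, with log2 estimates of −3.31 ± 0.38 and −4.82 ± 0.41 (SE, adjusted p = 0.000218 and 2.73e-06 in limma). It was the list's 1 call at R4. At R10 the list had 3 higher and 3 lower, beside 7.33% of all genes. The largest after Spp1 were Tgfb3 (1.81 ± 0.48), Vcam1 (−1.44 ± 0.41) and Ctgf (1.35 ± 0.38), with adjusted p-values of 0.0176, 0.0278 and 0.0255 in limma. The macrophage marker sums above moved in the same direction as Spp1 and Vcam1, and their part was not tested.

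Partners of alpha6 beta4 in the hemidesmosome formed a list of 7, of which 6 were tested in organoids. Lama3 (2.09 ± 0.27) and Lamb3 (1.17 ± 0.16), which encode laminin chains of the basement membrane, rose with regorafenib, with adjusted p-values of 7.48e-05 and 0.000109 in limma. Itgb4 and Itga6 themselves gave 0.41 and −0.10. In fibroblasts 4 were tested, and at R10 the cytolinker Plec (−0.87 ± 0.17, adjusted p = 0.00366 in limma) fell. The difference between cultures was not tested.

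Of 12 partners of the fibronectin matrix, 8 were tested in organoids and 3 rose, beside 4.97% of all genes. This count includes Ltbp1, which met the filter through regorafenib libraries alone. Bmp1, a protease that processes procollagens, gave 2.46 ± 0.27 (adjusted p = 2.16e-05 in limma), Ltbp1 appears in this list as well, and the proteoglycan Sdc1 gave 0.72 ± 0.10 (adjusted p = 0.000152 in limma). In fibroblasts 11 were tested and none passed at R4. At R10, where 7.33% of all genes passed, Sdc1 rose (0.68 ± 0.18, adjusted p = 0.0167 in limma) and Sdc4, a coreceptor for fibronectin, fell (−0.69 ± 0.19, adjusted p = 0.0205 in limma).

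With 5-FU in organoids, where 2.35% of all genes passed, 3 of the 22 activators and adaptors tested rose (Fermt1, Actn1 and Kank2), as did 2 of 15 ligands (Spp1 and Thbs1) and 1 of 6 hemidesmosome partners (Lama3). None fell, and the other 2 lists had no call. With the line as a block, beside 5.05% of all genes, the genes that rose in these 3 lists numbered 4, 6 and 3, 2 fibronectin matrix partners rose and 1 other integrin subunit fell. Between the genotypes in vehicle, between R8 and R4 in organoids, and with autogramin-2 alone or added to R4 in fibroblasts, none of the 5 lists had a call by limma without the block.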

How the data were processed

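Deposited values are signal in units of CP20M, for which the authors trimmed reads (Trimmomatic 0.36), aligned them to GRCm38 (STAR 2.5.3a), counted them per Ensembl gene (HTSeq 0.9.1) and scaled each library to 20000000. The values were rounded up and not divided by length. The labels and the methods name different library kits, and the strand setting of the counting is not given in the sources used here. Whole reads were recovered from the step between values, with 99.02 to 100.0% of values whole in organoids and 99.61 to 99.95% in fibroblasts, and used for depth and for 1 alternative test.

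Values were analysed as log2(CP20M + 20), so fold changes of low genes are understated. The test was limma 3.58.1 (R 4.3.3) over genes with at least 200 CP20M in at least 2 libraries (1 coefficient per group, eBayes with trend), and p-values were adjusted over all genes tested (Benjamini-Hochberg). 18 organoid libraries were fitted for genotype, dose and regorafenib, 24 for 5-FU, and 19 for fibroblasts. In organoids Itga5, and some list genes low in vehicle, met the filter of 200 CP20M through treated libraries alone. Thresholds followed the study's for genotype (FDR 0.01, log2 fold change 1) and regorafenib in organoids (0.001 and a 1.5-fold change, 0.585 on the log2 scale), and were 0.05 and 1.5-fold elsewhere, with no fold for the genotype difference in response.

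The members, the gene lists and the tests were chosen with earlier results of these data known, and the rule that lists the members names no contrast. The response to regorafenib was taken as what guided their choice. All 10 members are named, and of each list the 4 genes with the largest changes past the threshold with regorafenib, except 1 gene that is not reported here. The overlapping genes, and the 5 most like Fn1 in each table, are also named, as are the list genes called with 5-FU, after their values were seen. Libraries of a line share a mouse, which is where the pairing comes from. With group means removed, the mean correlation within a line was 0.43, 0.50 and 0.72 in the fits of 18, 24 and 19 libraries, against −0.21, −0.25 and −0.23 between lines. Removing group means itself makes the values between lines negative when those within a line are positive, so they are no separate measure of pairing. Replicates are lines from separate mice, and no pair within a group looked like a copy (chi-square per gene at least 8.86 over 51 pairs). For 3 tumoroid 5-FU libraries, titled as colonoid, the genotype label decided the group, and for 1 fibroblast library its library name did. Positions are from GENCODE M21, which holds 52489 of the 52636 genes. Alternatives were other pseudocounts, no filter, TMM factors, edgeR 4.0.16 on recovered reads, the line as a block, and leaving out each line or the shallowest library. The fits were tested on simulated data.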

Additional observations from a re-analysis of the deposited data

Results flagged for a closer look

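In fibroblasts at 4 µM regorafenib, Itga5 of line M3 measured 17970 CP20M, which stood apart from the other 3 lines (9823 to 10642). It was the 1 such value among 36 groups of 4 libraries looked at, and chance marks about 1 in 20 groups. Without line M3 the Itga5 estimate at this dose was 0.18 against 0.28 with all lines.

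Fn1 at 4 µM was higher than vehicle in all 6 organoid lines and lower in all 4 fibroblast lines, and the mean log2 changes differed by 4.86. Itgav did the same, with a difference of 1.49. These differences were not tested, because the organoid and fibroblast tables were scaled separately, the treatments lasted 6 and 7 days, and these responses were taken as guiding the choice of members. Culture medium, matrix and run also differ between the tables and cannot be told apart from cell type.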

How the results depend on the processing

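Under every alternative run, no member was called for genotype, for the genotype difference in response or for autogramin-2 alone. Between 8 and 4 µM in organoids the count of 0 became 1 with TMM factors and 1 with edgeR (Itgb4 in both), 1 with the line as a block (Itga2), and 2 without the shallowest library, with or without the block. For 5-FU the count of 1 became 3 with the block, 2 without the shallowest library, 3 with both changes and 0 without a filter, and it ranged from 0 to 1 when each line was left out, where the 1 was Itga5 and Fn1 passed in none of the 6 fits. The replicate block by line gave 1 member for autogramin-2 added to regorafenib and 3 for 10 against 4 µM in fibroblasts, where the fit without it gave 0, and edgeR gave 0 for both. Other integrin subunits called with regorafenib in organoids numbered 1 with the block and without the shallowest library, and 0 otherwise, and in fibroblasts at 10 µM they ranged from 1 to 2 when each line was left out. The fit with the block and without the shallowest library was chosen after seeing the data. Small estimates changed sign with 1 line left out: Itga5 between genotypes ranged from −0.53 to 0.24, positive without F11, and Itgav between doses from −0.49 to 0.094, positive without M1. From vehicle to regorafenib with each line left out, Fn1 ranged from 4.401 to 4.67 in organoids, −0.46 to −0.33 at 4 µM and −0.50 to −0.22 at 10 µM in fibroblasts. Between doses its small estimate changed sign, from −0.17 to 0.57 in organoids and −0.09 to 0.20 in fibroblasts. The cause of these shifts was not tested. In the shallow library 200 CP20M is about 5 reads, so low members such as Itga5 are coarse there.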
